A study of Mus musculus with 13 samples.

Results

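The 10 genes described here are 2 cytokines of the interleukin-6 family (*Il6* and *Lif*), 4 receptor chains of that family (*Il6ra*, *Osmr*, *Lifr* and *Il6st*), the interleukin-4 receptor chain *Il4ra*, the transcription factor *Stat3* and the inhibitors *Socs1* and *Socs3*. They were taken by gene symbol from the 47643 genes counted by RNA-seq in neurovasculature isolated from mouse brain, each symbol matched 1 gene, and all 10 had enough counts to be tested. The mice were 13 male CD1 mice, an outbred strain, aged 8 to 10 weeks. The 4 sham-vehicle mice received PBS in place of lipopolysaccharide (LPS), the 5 LPS-vehicle mice received LPS of *Salmonella enterica typhimurium* into the abdomen at 3 mg/kg at 0, 6 and 24 h, and the 4 LPS-CPD-4645 mice received the same LPS together with CPD-4645, an inhibitor of the 2-AG-degrading enzyme monoacylglycerol lipase (MAGL). CPD-4645 was dosed under the skin at 10 mg/kg, 30 min after each LPS injection according to the sample records and the study's methods. The results section of the study gives a longer delay. Tissue was taken at 28 h. The study dissolved CPD-4645 in DMSO, Cremophor and saline, and both vehicle groups are named for receiving vehicle without CPD-4645. No group received CPD-4645 without LPS.

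Cytokines of the interleukin-6 family signal through the shared receptor chain gp130, which *Il6st* encodes, paired with a chain that sets which ligand is bound. Janus kinases on these receptors phosphorylate STAT3, which enters the nucleus and induces many acute-phase and inflammatory genes, among them *Socs3*, whose protein binds gp130 and shuts the signal down. In brain vessels these cytokines act on endothelial cells and astrocytes during systemic inflammation, and in the liver the same pathway drives the acute-phase response.

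Each library came from 1 mouse and held between 7813559 and 55133373 counts, with LPS-vehicle mouse 3 the shallowest and then LPS-CPD-4645 mouse 1. Levels are given as counts scaled to library size (CPM, with TMM), and fold changes with their standard error (SE) come from an edgeR quasi-likelihood fit of all 13 mice, with p adjusted by Benjamini-Hochberg over 17285 genes. A gene was called when its adjusted p was at most 0.05 and its change at least 2-fold. None of the 8 endothelial markers and none of the 8 pericyte and smooth muscle markers was at 0 in all mice of a group. Their sums ran over 290 to 675 CPM and 180 to 375 CPM. Neuron markers summed to far more, 7060 to 9520 CPM, and oligodendrocyte markers to 2920 to 6320 CPM. The lists hold different genes, so these sums are not cell shares, but the levels given here are those of a mixed fraction. The brains were not perfused. The summed level of 8 neutrophil markers ran from 3.65 to 11 CPM in sham-vehicle mice, from 65.0 to 277 CPM after LPS with vehicle and from 7.94 to 27.5 CPM after LPS with CPD-4645, and that of 7 monocyte and macrophage markers was 17.7 to 22.4, 49.7 to 106 and 20 to 33.4 CPM in the same order. In such bulk tissue, fewer cells of a type and less RNA per cell cannot be told apart.

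LPS challenge raised both cytokines, 3 of the 5 receptor chains, *Stat3* and both *Socs* genes. Of the 10 genes, 8 were called higher in LPS-vehicle than in sham-vehicle mice, against 4.68% of all genes tested, and 0 were called lower, against 0.995%. By adjusted p alone 9 were higher, against 11.1%, and 0 lower, against 8.86%, and for 8 genes every LPS-vehicle mouse was above every sham-vehicle mouse, as for 9.68% of all genes (0 below, against 8.44%). Limma-voom, the study's own test, called 5 of them, without *Il6*, *Lif* and *Socs1*. The largest change was that of *Il6*, at 44.1-fold, and the next were *Lif* at 13.5-fold, *Socs3* at 12.9-fold and *Osmr* at 9.25-fold. The chain that the receptors of this family share, *Il6st*, differed by 1.14-fold and did not pass the test. By adjusted p a difference between the LPS groups was detected for 1 of these 8 genes, *Stat3*, which was higher under CPD-4645, where 14.1% of all genes were higher and 16.4% lower, so that the count is near the share of all genes. The median log2 fold change of the 10 genes between LPS-vehicle and sham-vehicle was 1.81, where that of all genes tested was 0.0.

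**Figure D1:**
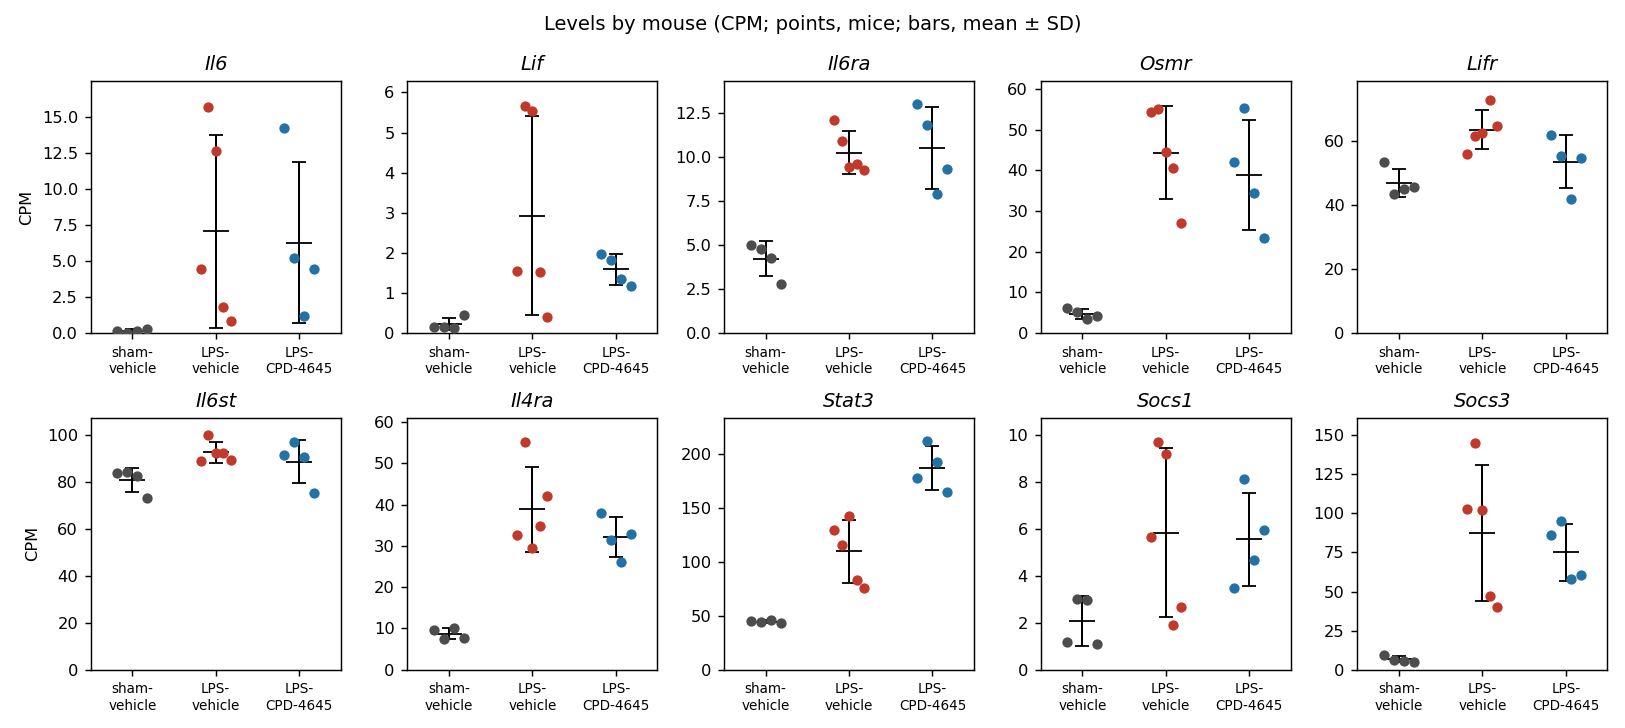
Level of each of the 10 genes in each mouse, in CPM on linear axes that start at 0, for sham-vehicle (grey), LPS-vehicle (red) and LPS-CPD-4645 (blue). Points are mice and black bars are mean ± SD. Sham-vehicle mice lie below every mouse of both LPS groups for Il6, Il6ra, Osmr, Stat3, Socs3 and Il4ra, and for Stat3 the LPS-CPD-4645 mice, at 165 to 212 CPM, lie above the LPS-vehicle mice, at 75.8 to 143 CPM.

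*Il6*, the gene of interleukin-6 (chr5:30013114-30019981, plus strand), was close to absent without LPS. Its level was 0.171, 0, 0.159 and 0.296 CPM in sham-vehicle mice 1 to 4, which stands for at most 6 counts in a library. In LPS-vehicle mice 1 to 5 it was 4.46, 15.7, 12.6, 1.78 and 0.805 CPM, and in LPS-CPD-4645 mice 1 to 4 it was 14.2, 5.21, 1.17 and 4.43 CPM. Every LPS-treated mouse was above every sham-vehicle mouse, yet within the LPS-vehicle group the highest mouse had 873 counts and the lowest 27. The log2 fold change was 5.46 (SE 1.0, adjusted p = 0.00071 with edgeR) for LPS-vehicle and 5.27 (SE 1.02, adjusted p = 0.00056) for LPS-CPD-4645, both against sham-vehicle. The first was 4.85 without LPS-vehicle mouse 2, and the second 4.53 without LPS-CPD-4645 mouse 1. Under limma-voom the same values were 5.06 and 4.98 with adjusted p of 0.1608 and 0.1236, so that the *Il6* call rests on the count model.

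*Lif* encodes leukemia inhibitory factor, a second ligand that signals through gp130 (chr11:4257557-4272514, plus strand). It was at 0.143, 0.161, 0.119 and 0.444 CPM in sham-vehicle, at 1.55, 5.65, 5.55, 1.51 and 0.388 CPM in LPS-vehicle and at 1.98, 1.82, 1.36 and 1.18 CPM in LPS-CPD-4645 mice. LPS-vehicle mouse 5 lay below sham-vehicle mouse 4, so those groups overlapped, whereas the LPS-CPD-4645 mice were all above sham-vehicle. The log2 fold change against sham-vehicle was 3.75 (SE 0.7, adjusted p = 0.0008 with edgeR) after LPS and 2.9 (SE 0.72, adjusted p = 0.0038) after LPS with CPD-4645. Limma-voom gave *Lif* an adjusted p of 0.0639 and 0.0750.

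Binding motifs of NF-kB, AP-1 and STAT factors were searched in the sequences that precede the 10 genes. The sequences of the 3 genes with a match are shown. They are RefSeq promoter windows on GRCm38.p6, cut to the bases outside annotated exons, 5′ to 3′ on the strand of the gene, with matches in capitals. For *Il6* the window is chr5:30012864-30013113, plus strand, for *Lif* chr11:4257318-4257556, plus strand, and for *Socs3* chr11:117969452-117969616, minus strand, which lies in an intron of the longer annotated *Socs3* transcript.
Il6: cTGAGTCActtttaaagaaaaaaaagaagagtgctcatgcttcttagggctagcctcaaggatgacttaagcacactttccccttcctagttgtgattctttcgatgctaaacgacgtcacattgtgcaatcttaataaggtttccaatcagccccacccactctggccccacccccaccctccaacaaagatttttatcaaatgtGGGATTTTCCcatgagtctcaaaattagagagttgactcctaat
Lif: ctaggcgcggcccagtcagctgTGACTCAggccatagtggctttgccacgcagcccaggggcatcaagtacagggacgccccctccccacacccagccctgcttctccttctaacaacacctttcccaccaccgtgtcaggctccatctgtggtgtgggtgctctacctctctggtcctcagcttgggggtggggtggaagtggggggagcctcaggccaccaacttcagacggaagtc
Socs3: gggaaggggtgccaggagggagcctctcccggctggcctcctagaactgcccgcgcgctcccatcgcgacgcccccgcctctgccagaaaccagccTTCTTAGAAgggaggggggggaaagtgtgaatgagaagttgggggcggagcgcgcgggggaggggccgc
The STAT-type motif TTCNNNGAA, searched with both strands covered since it is its own reverse complement, was present in 7.02% of 32851 RefSeq windows of 250 bases before a start and in 1 of the 11 windows of the 10 genes, as TTCTTAGAA at 154 bases before the *Socs3* start. The same letters with a spacer 1 base longer were present in 5.85% of windows and in 0 of the 11. The NF-kB-type motif, searched on either strand as GGGA, any base, TT, any base and CC, was present in 0.98% of windows and in 1 of the 11, as GGGATTTTCC at 44 bases before the *Il6* start. The AP-1 motif TGACTCA, on either strand, was present in 4.46% of windows and in 2 of the 11, as TGAGTCA at 249 bases before the *Il6* start and as TGACTCA at 228 bases before the *Lif* start. A match describes the letters and not the occupancy of a site.

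Among the receptor chains, *Osmr*, the signalling chain for oncostatin M (chr15:6813577-6874969, minus strand), changed most. It was at 6.19, 5.27, 3.39 and 4.15 CPM in sham-vehicle, at 54.3, 55.2, 44.5, 40.7 and 27.1 CPM in LPS-vehicle and at 42.1, 55.4, 34.4 and 23.3 CPM in LPS-CPD-4645 mice. No LPS-treated mouse came near the sham-vehicle range. The log2 fold change against sham-vehicle was 3.21 (SE 0.26, adjusted p = 1.1e-07 with edgeR) for LPS-vehicle and 3.02 (SE 0.27, adjusted p = 2.1e-07) for LPS-CPD-4645.

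*Il6ra*, which encodes the chain that binds interleukin-6 itself (chr3:89864059-89913196, minus strand), rose less than *Osmr* but evenly. It was at 5.02, 4.79, 4.26 and 2.81 CPM in sham-vehicle, at 12.1, 10.9, 9.45, 9.58 and 9.24 CPM in LPS-vehicle and at 13, 11.8, 7.9 and 9.34 CPM in LPS-CPD-4645 mice. All LPS-treated mice were above all sham-vehicle mice. The change was 2.42-fold (log2 1.28, SE 0.19, adjusted p = 0.00011 with edgeR) for LPS-vehicle and 2.46-fold (log2 1.3, SE 0.2, adjusted p = 6.9e-05) for LPS-CPD-4645. A gene on the opposite strand shares exon bases with *Il6ra*, Gm42809, and held at most 6 counts in any library.

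*Lifr*, the chain for leukemia inhibitory factor (chr15:7090614-7197489, plus strand), and *Il6st* (chr13:112464070-112510086, plus strand) were already well expressed in sham-vehicle mice and moved little. *Lifr* was at 53.4, 43.4, 45.1 and 45.6 CPM in sham-vehicle, at 56.0, 61.6, 62.5, 72.7 and 64.7 CPM in LPS-vehicle and at 61.9, 55.4, 42.0 and 54.8 CPM in LPS-CPD-4645 mice. The LPS-vehicle mice were all above the sham-vehicle mice and *Lifr* passed the adjusted p alone, at 1.35-fold (log2 0.44, SE 0.11, adjusted p = 0.0071 with edgeR), as did 11.1% of all genes in that direction. *Il6st* was at 83.8, 84.1, 82.3 and 73.2 CPM in sham-vehicle, at 88.8, 99.8, 92.0, 92.4 and 89.1 CPM in LPS-vehicle and at 91.3, 96.8, 90.6 and 75.3 CPM in LPS-CPD-4645 mice. Its LPS-vehicle mice also lay above all sham-vehicle mice, as happened for 9.68% of genes, but the change of 0.19 on the log2 scale (95% confidence interval 0.02 to 0.36) had an adjusted p of 0.1060 in the edgeR fit.

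To compare the ligand-specific chains *Osmr* and *Il6ra* with the shared chain, their counts were set against those of *Il6st* in the same library, which removes the scaling between libraries. The mean log2 count ratio of *Osmr* to *Il6st* was -4.12 ± 0.35 (SD, n = 4) in sham-vehicle and -1.1 ± 0.39 (SD, n = 5) in LPS-vehicle mice. For *Il6ra* to *Il6st* it was -4.29 ± 0.28 (SD, n = 4) and -3.18 ± 0.17 (SD, n = 5). The differences of 3.02 and 1.11 each had p = 0.0159 in an exact permutation test, two-sided, which is the smallest p that 4 against 5 mice can give, and 0.0238 after Benjamini-Hochberg adjustment over 6 such tests. These pairs too were chosen with earlier results in view, so the p values are no independent evidence. Between the LPS groups the same ratios differed by -0.15 (exact permutation p = 0.5873) and 0.08 (exact permutation p = 0.6032).

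**Figure D2:**
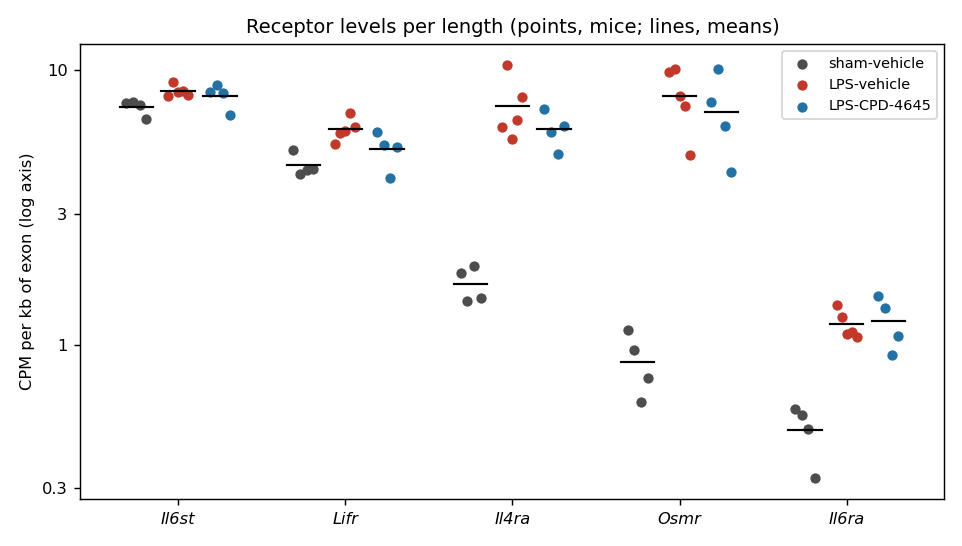
Levels of the 5 receptor chains in CPM per kb of exon on a log axis, by group. Points are mice and lines are group means. Il6st and Lifr lie between 4.05 and 9.09 CPM per kb in all groups, whereas Osmr has a mean of 0.865 in sham-vehicle and 8.08 in LPS-vehicle mice.

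Per kb of annotated exon, which allows genes to be compared, the order of the receptor chains in sham-vehicle mice was *Il6st* (7.37 ± 0.469 CPM per kb, SD, n = 4), *Lifr* (4.52 ± 0.427), *Il4ra* (1.67 ± 0.247), *Osmr* (0.865 ± 0.225) and *Il6ra* (0.488 ± 0.114), and each neighbouring pair was apart in range. In LPS-vehicle mice *Il6st* (8.42 ± 0.405, n = 5), *Osmr* (8.08 ± 2.09), *Il4ra* (7.4 ± 1.95) and *Lifr* (6.12 ± 0.583) stood closer, and neighbours in this order overlapped between mice. *Il6ra* stayed below them, with 1.07 to 1.4 CPM per kb. The plot of receptor levels per length shows that *Osmr* and *Il4ra* moved up to the range of *Il6st* and *Lifr* in both LPS groups.

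*Il4ra* encodes the chain that binds interleukin-4 and also takes part in the interleukin-13 receptor, and it signals mainly through STAT6 (chr7:125552120-125579474, plus strand). It was at 9.56, 7.56, 10.2 and 7.75 CPM in sham-vehicle, at 32.7, 55.2, 29.6, 34.7 and 42.1 CPM in LPS-vehicle and at 38.0, 31.4, 26.1 and 32.9 CPM in LPS-CPD-4645 mice. The sham-vehicle mice were all below the others, and the LPS groups overlapped. The change against sham-vehicle was 4.45-fold (log2 2.16, SE 0.17, adjusted p = 1.1e-07 with edgeR) for LPS-vehicle and 3.65-fold (log2 1.87, SE 0.18, adjusted p = 5.1e-07) for LPS-CPD-4645. Its ligands were near absent, with at most 4 counts of *Il4* and at most 4 of *Il13* in any library. Of the 4 tested genes of interleukin-4 and interleukin-13 signalling, of 6 listed, 2 were called higher after LPS, against 4.68% of all genes. Besides *Il4ra* this was *Il2rg*, the common gamma chain that pairs with *Il4ra* and is expressed by leukocytes. *Il2rg* went from 0.956 to 9.95 CPM on average (log2 3.37, SE 0.35) and was at 1.99 CPM in LPS-CPD-4645 mice, a fall of 2.37 on the log2 scale against LPS-vehicle (SE 0.33, adjusted p = 5.7e-05), where *Il4ra* differed by -0.29 (95% confidence interval -0.63 to 0.05).

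*Stat3*, the transcription factor downstream of gp130 (chr11:100885098-100939540, minus strand), was the member with the tightest sham-vehicle group and the 1 that separated all 3 groups. It was at 44.9, 44.2, 45.8 and 42.9 CPM in sham-vehicle, at 130, 116, 143, 83.6 and 75.8 CPM in LPS-vehicle and at 178, 212, 193 and 165 CPM in LPS-CPD-4645 mice. The lowest LPS-vehicle mouse was above the highest sham-vehicle mouse, and the lowest LPS-CPD-4645 mouse was above the highest LPS-vehicle mouse. *Stat3* rose 2.45-fold with LPS (log2 1.29, SE 0.15, adjusted p = 6.1e-06 with edgeR) and was 4.21-fold above sham-vehicle in LPS-CPD-4645 mice (log2 2.07, SE 0.16, adjusted p = 4.6e-08). *Stat3* shares exon bases at its 3′ end with *Stat5a* on the other strand, which had mean levels of 2.95, 7.08 and 8.49 CPM in the groups in that order, and the sources used here do not state which strand was counted.

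Both inhibitors rose, *Socs3* by far the more. *Socs3*, the feedback inhibitor that acts on gp130 (chr11:117966079-117970047, minus strand), was at 9.5, 6.44, 5.9 and 4.89 CPM in sham-vehicle, at 103, 145, 102, 47.4 and 39.9 CPM in LPS-vehicle and at 86.3, 94.9, 58.1 and 60.6 CPM in LPS-CPD-4645 mice. All LPS-treated mice stood far above sham-vehicle, and the LPS-vehicle group split into mice 1 to 3, at 102 CPM or more, and mice 4 and 5, below 50 CPM. The log2 fold change against sham-vehicle was 3.69 (SE 0.34, adjusted p = 5.1e-07 with edgeR) for LPS-vehicle and 3.47 (SE 0.35, adjusted p = 8.3e-07) for LPS-CPD-4645.

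*Socs1*, which inhibits Janus kinases directly and restrains interferon and interleukin-4 signalling (chr16:10782240-10785536, minus strand), was at 1.2, 3.02, 2.99 and 1.09 CPM in sham-vehicle, at 5.67, 9.69, 9.2, 1.89 and 2.68 CPM in LPS-vehicle and at 3.48, 8.11, 4.67 and 5.97 CPM in LPS-CPD-4645 mice. Mice 4 and 5 of the LPS-vehicle group lay within the sham-vehicle range, and the LPS-CPD-4645 mice lay above it. The change was 2.76-fold (log2 1.46, SE 0.46, adjusted p = 0.0303 with edgeR) for LPS-vehicle and 2.71-fold (log2 1.44, SE 0.47, adjusted p = 0.0226) for LPS-CPD-4645. The first call was lost without sham-vehicle mouse 1 or 4 or LPS-vehicle mouse 1, 2 or 3, with adjusted p from 0.0518 to 0.0963, with limma-voom (adjusted p = 0.1101), without the 2 shallowest libraries (adjusted p = 0.0656) and in a test against a 2-fold change. The second call was lost in that last test and without sham-vehicle mouse 1 or 4 or LPS-CPD-4645 mouse 2, with adjusted p from 0.0650 to 0.0786.

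The spread between mice was shared by several genes. LPS-vehicle mouse 2 had the highest level in its group for 7 of the 10 genes, LPS-vehicle mouse 5 the lowest for 6 and was among the 2 lowest for 8. Among LPS-CPD-4645 mice, mice 1 and 2 were highest for 5 genes each. LPS-vehicle mouse 2 also had the most counts and the highest summed neutrophil markers, at 277 CPM, and mouse 5 the lowest, at 65.0 CPM. The monocyte and macrophage markers were highest in LPS-vehicle mouse 3, at 106 CPM, with mouse 2 at 76.0 and mouse 5 lowest at 49.7 CPM. Among LPS-CPD-4645 mice the neutrophil markers were highest in mouse 4, at 27.5 CPM, with mice 1 and 2 at 25.3 and 12.6 CPM. The part of those cells in these levels was not tested.

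The comparison of LPS-CPD-4645 with LPS-vehicle mice asks how CPD-4645 altered the response to LPS. The study found that this compound also partly inhibited the enzymes ABHD6 and FAAH in the brain. At the threshold of 2-fold, 0 of the 10 genes were called higher, against 1.7% of all genes, and 0 lower, against 4.19%. By adjusted p alone 1 gene passed, *Stat3*, which was 1.71-fold higher (log2 0.78, SE 0.14, 95% confidence interval 0.48 to 1.08, adjusted p = 0.00066 with edgeR), as 14.1% of all genes were higher by that rule, and 0 were lower, against 16.4%. *Stat3* was also the 1 gene whose groups did not overlap, against 11.1% of genes wholly higher and 12% wholly lower. Over 21 alternatives, which included leaving out each mouse, the *Stat3* difference ran from 0.67 to 0.91 on the log2 scale with adjusted p of at most 0.0039. The interval of the *Stat3* difference reached just past 2-fold, and a test against a 2-fold change did not call it.

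For the other genes the intervals show how large a change could have been missed. *Il6* differed by -0.19 on the log2 scale, with a 95% confidence interval of -1.64 to 1.26, and *Lif* by -0.86, with an interval of -2.05 to 0.34, so that a 2-fold fall was within the interval for both cytokines, as was no change, and for *Il6* a 2-fold rise too. For the others a 2-fold change in either direction was outside the interval. *Socs1* differed by -0.03 (95% confidence interval -0.93 to 0.88), and narrower intervals were obtained for *Socs3* (-0.22, -0.83 to 0.39), *Osmr* (-0.19, -0.67 to 0.28), *Il6ra* (0.03, -0.36 to 0.42) and *Il6st* (-0.06, -0.23 to 0.11). *Lifr* was at -0.25 (-0.47 to -0.03) with an adjusted p of 0.0852 from edgeR, and was 1.14-fold above sham-vehicle in LPS-CPD-4645 mice (adjusted p = 0.1981). The median of the 10 log2 fold changes was -0.19, against -0.02 for all genes tested.

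**Figure D3:**
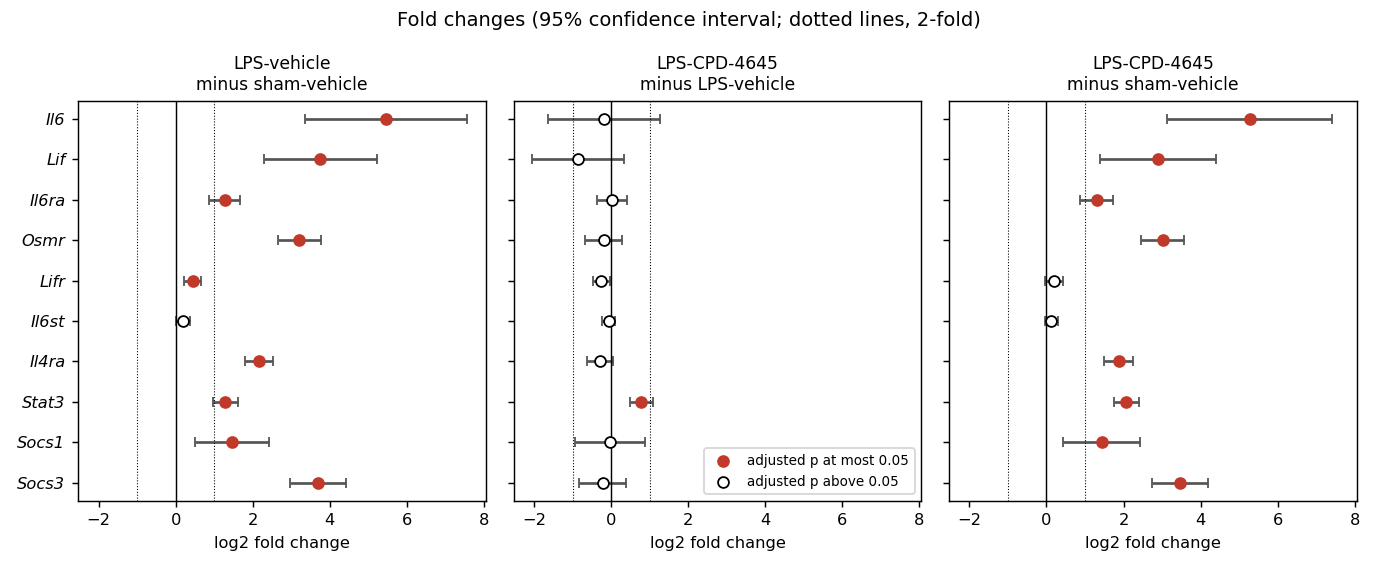
Log2 fold changes of the 10 genes in the 3 comparisons, with 95% confidence intervals from the edgeR fit. Filled points have an adjusted p of at most 0.05 and dotted lines mark a 2-fold change. Between the LPS groups only Stat3 is filled, at 0.78, and the intervals of Il6 and Lif are the widest.

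Against sham-vehicle, 8 of the 10 genes were called higher in LPS-CPD-4645 mice, where 6.11% of all genes were, and 0 lower (4.98%), namely *Il6*, *Lif*, *Il6ra*, *Osmr*, *Il4ra*, *Stat3*, *Socs1* and *Socs3*. The same 8 passed by adjusted p alone (19.5% of genes higher, 19.3% lower) and had no overlap with sham-vehicle (18.7% wholly higher, 18.8% wholly lower). Both comparisons with sham-vehicle share their sham-vehicle mice, so the values are given side by side only. The mean level went from 6.68 CPM in sham-vehicle to 87.4 and 75.0 CPM for *Socs3*, from 4.75 to 44.4 and 38.8 CPM for *Osmr*, and from 8.76 to 38.9 and 32.1 CPM for *Il4ra*. *Stat3* went from 44.4 to 110 and 187 CPM. *Il6st*, at 80.8, 92.4 and 88.5 CPM, passed no test in any of the 3 comparisons.

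To compare *Stat3* with its inhibitor *Socs3*, the ratio of their counts was computed within each library. The count ratio of *Socs3* to *Stat3* was 0.212, 0.146, 0.129 and 0.115 in sham-vehicle mice, 0.797, 1.25, 0.714, 0.567 and 0.527 after LPS, and 0.486, 0.447, 0.301 and 0.368 after LPS with CPD-4645. The 3 groups did not overlap, with LPS-CPD-4645 mice between the others. The mean log2 ratio rose by 2.33 from sham-vehicle to LPS-vehicle mice, and it was 0.9 lower in LPS-CPD-4645 than in LPS-vehicle mice (-1.34 ± 0.31, SD, n = 4, against -0.45 ± 0.49, SD, n = 5). This pair of genes was chosen with the earlier results in view and the ratio holds the *Stat3* difference already given, so these values are a description. The exact permutation tests run on both differences (p = 0.0159 each, 0.0238 after adjustment over the 6 tests) are therefore no independent evidence.

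**Figure D4:**
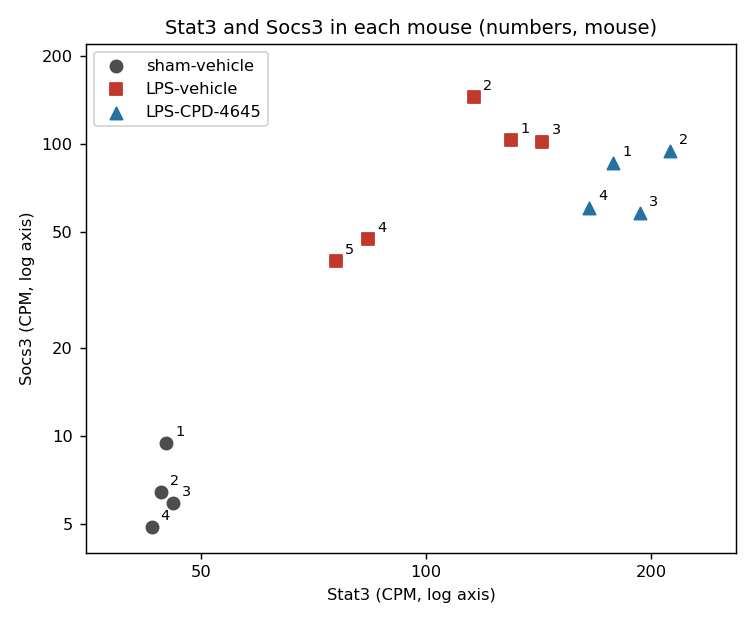
Stat3 against Socs3 in each of the 13 mice, in CPM on log axes, with mouse numbers beside the points. Sham-vehicle mice sit at the lower left, and LPS-CPD-4645 mice lie to the right of LPS-vehicle mice, at 165 to 212 CPM of Stat3 with Socs3 at 58.1 to 94.9 CPM.

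The remaining genes of the pathway were taken from lists written from general knowledge. Of the 8 tested ligand genes of the family, of 10 listed, 4 were called higher after LPS, against 4.68% of all genes: *Il6*, *Lif*, *Osm* and *Ebi3*. *Osm*, which encodes oncostatin M, the ligand of *Osmr*, had a mean of 0.195 CPM in sham-vehicle mice, 1.0 CPM after LPS and 0.877 CPM after LPS with CPD-4645, with log2 fold changes of 2.31 (SE 0.61, adjusted p = 0.0114 with edgeR) and 2.07 (SE 0.63, adjusted p = 0.0150) against sham-vehicle. *Ebi3*, a subunit of interleukin-27, was at 1.21, 3.2 and 1.93 CPM, and *Clcf1*, a cytokine of the CNTF receptor, at 1.14, 1.91 and 3.21 CPM, with *Clcf1* called only against sham-vehicle in LPS-CPD-4645 mice (log2 1.49, SE 0.35) and *Ebi3* only after LPS with vehicle (log2 1.37, SE 0.32). The differences of *Ebi3* and *Clcf1* between the LPS groups, -0.68 and 0.8, had adjusted p of 0.1046 and 0.0709. *Il11* and *Cntf* passed no test, *Ctf1* was 0.96 lower on the log2 scale in LPS-CPD-4645 than in LPS-vehicle mice by adjusted p alone (log2 -0.96, adjusted p = 0.0412), and *Il27* and *Ctf2*, with at most 30 and 2 counts in a library, were too low to test.

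Of the 7 tested receptor genes of the family, 2 were called higher after LPS, *Osmr* and *Il6ra* (4.68% of all genes), and 4 passed by adjusted p alone (11.1%). The addition besides *Lifr* was *Il11ra1*, the interleukin-11 receptor chain, from 8.88 to 16.1 CPM (log2 0.85, SE 0.14, adjusted p = 0.00027 with edgeR). *Cntfr* passed no test. *Il27ra*, the interleukin-27 receptor chain of leukocytes, was called lower in LPS-CPD-4645 than in LPS-vehicle mice (0.34 against 0.972 CPM, log2 -1.56, SE 0.56, adjusted p = 0.0436), a call that was lost in 14 of 21 alternatives.

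Of 10 Janus kinases and STATs, 3 were called higher after LPS, against 4.68% of all genes: *Stat2* (log2 1.33, SE 0.17), which carries interferon signals, *Stat5a* (log2 1.23, SE 0.29) and *Stat3*. Under CPD-4645 none of the 10 passed 2-fold against LPS-vehicle, where 1.7% of all genes were called higher and 4.19% lower, and by adjusted p alone 2 were higher, where 14.1% of all genes were, and 4 lower, where 16.4% were. Those higher were *Stat3* and *Jak1*, a kinase that serves gp130, at 0.2 (SE 0.06, adjusted p = 0.0241). *Stat5b* was at -0.61 (adjusted p = 9e-05), *Stat6* at -0.71 (adjusted p = 0.0013), *Jak3* at -0.68 (adjusted p = 0.0046) and *Tyk2* at -0.54 (adjusted p = 0.0132) on the log2 scale.

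Of the 8 genes of the SOCS family, 2 were called higher after LPS, *Socs1* and *Socs3*, against 4.68% of all genes. None was called between the LPS groups, where 1.7% of all genes were called higher and 4.19% lower, so that with 8 genes a count of 0 is near the share of all genes. *Socs2*, an inhibitor of growth hormone signalling, was at 16.8 CPM in sham-vehicle mice, 24.4 CPM after LPS and 36.9 CPM after LPS with CPD-4645, with a difference between the LPS groups of 0.61 on the log2 scale (SE 0.15, adjusted p = 0.0061 with edgeR). *Socs5* went the other way, at 148, 138 and 105 CPM, with -0.4 between the LPS groups (SE 0.07, adjusted p = 0.0007). *Cish* was 0.66 higher than sham-vehicle on the log2 scale in LPS-CPD-4645 mice by adjusted p alone (adjusted p = 0.0203), and *Socs4*, *Socs6* and *Socs7* passed no test. Of 8 other inhibitors of the pathway, 1 was called higher after LPS, against 4.68% of all genes. That gene was *Ptpn6*, which encodes a phosphatase abundant in leukocytes (log2 2.2, SE 0.18, adjusted p = 1.5e-07 with edgeR). Between the LPS groups none of the 8 passed 2-fold, where 1.7% of all genes were called higher and 4.19% lower. By adjusted p alone 3 were higher in LPS-CPD-4645 mice (14.1% of all genes) and 1 lower (16.4%), the latter near the share of all genes. *Ptpn6* was at -0.7 on the log2 scale (adjusted p = 0.0051), the phosphatase gene *Ptpn11* at 0.47 (adjusted p = 0.0020), and *Pias3* and *Pias1*, which encode inhibitors of activated STATs, at 0.43 (adjusted p = 0.0070) and 0.39 (adjusted p = 0.0125).

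Known targets of STAT3 rose widely with LPS. Of 20 tested genes on this list, of 22 listed, 14 were called higher, against 4.68% of all genes, and 0 lower in LPS-vehicle mice, with a median log2 fold change of 2.6. In LPS-CPD-4645 mice 14 were called higher than sham-vehicle, against 6.11% of all genes, with a median of 2.46. *Lcn2*, the iron-binding acute-phase protein lipocalin 2, went from 23.5 CPM in sham-vehicle mice to 700 CPM after LPS and 778 CPM after LPS with CPD-4645, with log2 fold changes of 4.87 and 5.02 that were 5.77 and 5.93 without sham-vehicle mouse 1. *Timp1*, an inhibitor of metalloproteinases, went from 0.726 to 18.4 and 16.2 CPM, *Bcl3*, a nuclear regulator of NF-kB, from 0.972 to 24.7 and 14.6 CPM, and *Icam1*, the endothelial adhesion molecule for leukocytes, from 7.65 to 142 and 118 CPM. Between the LPS groups, 0 of the 20 were called higher and 1 lower, near the 1.7% and 4.19% of all genes. The latter was *Hp*, which encodes haptoglobin, at 9.42 CPM with vehicle and 3.48 CPM with CPD-4645 (log2 -1.44, SE 0.37, adjusted p = 0.0066 with edgeR). *Steap4*, a metalloreductase, was at 10.8 and 15.4 CPM in these groups (log2 0.52, adjusted p = 0.1075). By adjusted p alone, the rule by which *Stat3* itself was higher in LPS-CPD-4645 mice, 2 of the 20 were higher and 2 lower, no more than the 14.1% and 16.4% of all genes. Those higher were *Bcl2l1*, which encodes an inhibitor of cell death (227 against 158 CPM, log2 0.53, adjusted p = 0.0009), and the acute-phase gene *Serpina3n* (914 against 585 CPM, log2 0.64, adjusted p = 0.0190), and those lower were *Hp* and *Cebpd*, a transcription factor gene (log2 -0.69, adjusted p = 0.0243). In all 8 of the 20 had a difference above 0 and 12 below, with a median of -0.16 on the log2 scale, against -0.02 for all genes tested.

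All 10 listed genes that interferons induce were called higher than sham-vehicle in both LPS groups, against 4.68% and 6.11% of all genes, with *Gbp2* and *Tap1* at log2 2.68 and 2.67 after LPS and 3.55 and 3.3 after LPS with CPD-4645. *Cxcl10*, a chemokine, was 2.64 higher on the log2 scale in LPS-CPD-4645 than in LPS-vehicle mice (207 against 36.3 CPM, SE 0.67, adjusted p = 0.0066 with edgeR). The *Cxcl10* levels overlapped, at 4.92 to 117 CPM with vehicle and 106 to 433 CPM with CPD-4645, and the difference was 3.69 without LPS-vehicle mouse 3 and 1.97 without LPS-CPD-4645 mouse 2. Its call after LPS with vehicle was lost with limma-voom (adjusted p = 0.1340). Between the LPS groups *Gbp2* was 0.87 higher in LPS-CPD-4645 mice by adjusted p alone (adjusted p = 0.0352), and *Irf7* and *Isg15* had log2 differences of -0.3 (adjusted p = 0.5499) and -0.55 (adjusted p = 0.2054). Of 5 tested targets of interleukin-4 and STAT6, of 9 listed, 1 was called higher after LPS, *Chil3*, against 4.68% of all genes. *Chil3*, which encodes a secreted lectin of myeloid cells, went from 0.184 to 7.84 CPM (log2 5.25, and 6.05 without sham-vehicle mouse 1). Under CPD-4645 *Chil3* was at 1.37 CPM (log2 -2.56 against LPS-vehicle, SE 0.44, adjusted p = 0.00038 with edgeR). *Ccl17*, a chemokine for T cells, was at 5.67, 8.42 and 44.8 CPM in the 3 groups, with a log2 difference of 2.4 between the LPS groups (SE 0.22, adjusted p = 2e-06).

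Of 8 tested genes that induce the family or act beside it, 4 were called higher after LPS, where 4.68% of all genes were. *Csf3*, which encodes G-CSF, a cytokine that signals through STAT3 in neutrophils, went from 1.72 to 109 CPM (log2 5.84, and 6.86 without sham-vehicle mouse 1) and was at 60.1 CPM under CPD-4645 (log2 -0.87 between the LPS groups, adjusted p = 0.2211). *Il1b* went from 0.511 to 11.3 and 4.2 CPM, with a log2 difference of -1.41 between the LPS groups (SE 0.51, adjusted p = 0.0428 with edgeR). That call was lost in 9 of 22 alternatives, among them the fits without LPS-vehicle mouse 2 or 3 or LPS-CPD-4645 mouse 2 or 3 (adjusted p from 0.1024 to 0.1310), and the LPS groups overlapped. *Tnf* was at 0.581, 7.14 and 13.4 CPM (log2 0.92 between the LPS groups, adjusted p = 0.0904), and *Nfkbia*, the NF-kB inhibitor induced by NF-kB, at 34.4, 157 and 224 CPM. *Csf3r*, which encodes the G-CSF receptor and is among the neutrophil markers, was at 4.82 CPM in sham-vehicle mice and 6.55 CPM after LPS. That difference did not pass the test (log2 0.46, adjusted p = 0.3931 with edgeR). Under CPD-4645 *Csf3r* was at 1.47 CPM (log2 -2.25 against LPS-vehicle, SE 0.38, adjusted p = 0.00035 with edgeR).

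The marker lists place these values. After LPS, 6 of 7 tested neutrophil markers were called higher, against 4.68% of all genes, with a median log2 fold change of 4.74. Under CPD-4645 against LPS-vehicle, 7 of 7 were called lower, against 4.19% of all genes, with a median of -2.9. Against sham-vehicle, 3 of the 7 were called higher (6.11% of all genes) and 1 lower (4.98%) in LPS-CPD-4645 mice, with a median of 1.89. The lower one was *Csf3r*, which with a mean of 4.82 CPM was the highest of the listed neutrophil markers in sham-vehicle mice. The summed neutrophil markers had a median of 9.57 CPM in sham-vehicle mice, 89.8 CPM after LPS and 19.0 CPM after LPS with CPD-4645. Astrocyte markers summed to 1270 to 1610 CPM in sham-vehicle mice, 1630 to 2150 CPM after LPS and 1520 to 2050 CPM after LPS with CPD-4645, and endothelial markers to 290 to 479, 303 to 675 and 345 to 495 CPM. After LPS, 1 of 6 astrocyte markers was called higher, *Gfap*, from 95.2 to 504 CPM, and 0 lower, with a median log2 fold change of 0.11. Of 8 endothelial markers 2 were called higher and 2 lower, against 4.68% and 0.995% of all genes, with a median of 0.56. The part of these cells in the rises was not tested.

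**Figure D5:**
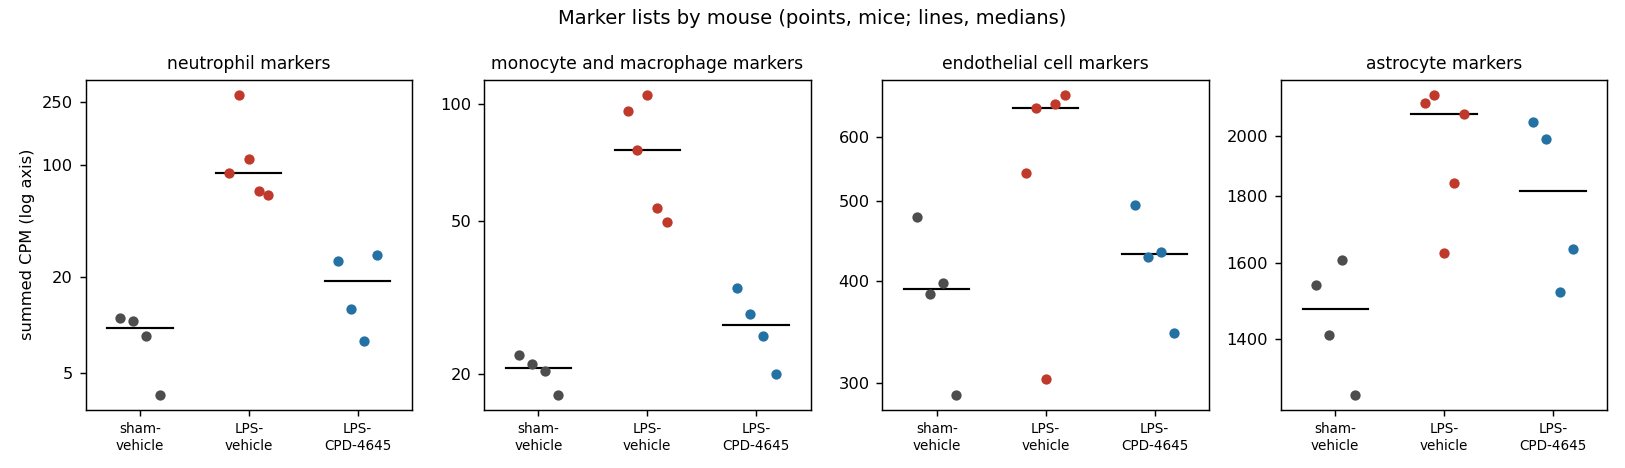
Summed CPM of the neutrophil, monocyte and macrophage, endothelial and astrocyte marker lists in each mouse, on log axes that differ between panels. Points are mice and lines are medians. Neutrophil markers are at 65.0 to 277 CPM in LPS-vehicle and at 7.94 to 27.5 CPM in LPS-CPD-4645 mice.

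For each of the 8 genes called after LPS, the most similar profiles were sought among 14845 genes, by the mean absolute difference of log2 CPM over the 13 mice after centring each gene. *Stat3* was closest to *Nt5e*, at 0.156, and *Cbr3*, at 0.167. *Osmr* was closest to *Adamts1* (0.162) and *Aspg* (0.219), *Il6ra* to *Adm* (0.162) and *Plce1* (0.166), and *Il4ra* to *Col4a1* (0.21) and *Fam107a* (0.211). *Socs3* was nearest to *Gbp5* (0.248) and *Maff* (0.271), and *Socs1* to *Plscr1* (0.381) and *Mx2* (0.389). The cytokines had the more distant neighbours, with *Clec4e* (0.68) and *Cxcl2* (0.704) for *Il6* and *Tnfaip2* (0.466) and *Atf3* (0.51) for *Lif*. The SD of log2 CPM among LPS-vehicle mice was 1.78 for *Il6* and 1.52 for *Lif*, and 0.07 for *Il6st*.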

How the data were processed

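RNA of 13 neurovasculature samples, 1 per mouse, was sequenced by the authors from stranded mRNA libraries. Per the methods and the sample records, reads were aligned to mm10 (GRCm38) with STAR 2.5.2a and counted per gene on GENCODE M9 basic, and the deposited values are raw counts without normalization. The strand column kept is not given in the sources used here. Groups and mouse numbers were taken from the sample titles. Positions and symbols were taken from GENCODE M21, which matched 47224 of 47643 genes, and promoter windows from RefSeq.

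Tests used edgeR 4.0.16 (R 4.3.3): filterByExpr (minimum count 10, total 15), which kept 17285 of the 27934 genes with any count, TMM (factors 0.908 to 1.08), and a quasi-likelihood fit with 1 term per group (common dispersion 0.0334). Standard errors and 95% intervals came from this fit, with a prior count of 2 for log2 CPM. Count ratios, with 0.5 added, were compared by exact permutation tests, two-sided. Alternatives were limma-voom (limma 3.58.1), DESeq2 1.42.0, its size factors in edgeR, all genes unfiltered, genes with mean counts of 50 or more, only the 2 groups compared, a replicate block, glmTreat, and each mouse left out. A fit without the 2 shallowest libraries was added after the data had been seen. The script was checked on simulated counts.

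The 10 genes and the 10 pathway lists and 13 marker lists, which were written from general knowledge, were chosen with earlier results of these data known. Some genes of these pathways are not reported here. The text names all 10 genes, all listed ligands and receptors of the family and SOCS genes, up to 4 called genes with the largest change and a mean of at least 1 CPM per other list and comparison, and the 2 nearest profiles of each called member. A few genes of the lists that did not pass the test are named beside them. P values measure the spread between mice at these depths, and counting error limits genes with few counts such as *Il6* in sham-vehicle mice.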

Additional observations from a re-analysis of the deposited data

Results flagged for a closer look

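Over 39 sets of values of the 10 genes and their ratios in groups of 4 or 5 mice, 1 had a mouse far from the others by Dixon's criterion, where chance gives about 1 in 20. The log2 count ratio of *Il6ra* to *Il6st* was -2.87 in LPS-vehicle mouse 1, while the other 4 mice of the group lay between -3.27 and -3.2. The gap was 0.825 of the range of the group. *Il6ra* itself was at 12.1 CPM in that mouse and at 9.24 to 10.9 CPM in the others.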

How the results depend on the processing

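With 22 alternatives per comparison, the number of the 10 genes called higher stayed at 8 or 7 against sham-vehicle in both LPS groups, except that limma-voom and glmTreat called 5 each after LPS with vehicle and 6 and 5 after LPS with CPD-4645; leaving out 1 mouse gave 7 to 8. The count was 0 in every alternative between the LPS groups. *Lif* was not tested at a mean count of at least 50. Small differences changed sign. Between LPS-CPD-4645 and LPS-vehicle, *Il6ra* was at -0.04 with limma-voom, -0.01 with the replicate block and -0.11 without the 2 shallowest libraries, and *Socs1* at 0.29 with limma-voom and 0.32 without those libraries. *Il11* after LPS was at -0.11 with limma-voom and -0.29 without those libraries, which also gave *Cntfr* 0.04 against sham-vehicle and *Timp1* 0.02 between the LPS groups. Leaving out 1 mouse moved the differences between the LPS groups over -0.93 to 0.43 for *Il6*, -0.08 to 0.15 for *Il6ra*, -0.11 to 0.02 for *Il6st*, -0.42 to 0.0 for *Osmr*, -0.27 to 0.28 for *Socs1*, -0.41 to 0.05 for *Socs3*, -0.43 to 0.06 for *Osm*, 0.0 to 0.24 for *Cish*, -0.45 to 0.12 for *Icam1*, -0.47 to 0.18 for *Irf7* and -0.42 to 0.04 for *Timp1*. After LPS, *Il11* ran over -0.29 to 0.72, *Socs4* over -0.02 to 0.15 and *Socs6* over -0.09 to 0.11, and *Cntfr* against sham-vehicle over -0.06 to 0.09. The cause was not tested. Leaving out 1 mouse, the ratio of *Osmr* to *Il6st* after LPS ran over 2.86 to 3.17, of *Il6ra* to *Il6st* over 0.98 to 1.19 and of *Socs3* to *Stat3* over 2.13 to 2.5, and between the LPS groups *Socs3* to *Stat3* ran over -1.02 to -0.7 and *Il6ra* to *Il6st* over -0.01 to 0.22; with 3 mice in a group the adjusted exact permutation p of the differences that had passed was 0.0536.

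Mouse numbers did not pair the samples: the correlations of deviations from group means were -0.035 to 0.114 in 12 same-number pairs and -0.137 to 0.124 in 44 others. With the replicate block the counts were 8 after LPS, 0 between the LPS groups and 8 against sham-vehicle after CPD-4645, and *Cish* was at 0.0 between the LPS groups.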
